A study of Saccharomyces cerevisiae with 6 samples.

Results

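The genes described here encode the enzymes of the tricarboxylic acid (TCA) cycle, the complexes of the mitochondrial respiratory chain and ATP synthase in budding yeast, Saccharomyces cerevisiae. They are 54 of the 5583 genes named in the platform annotation, taken by gene symbol. All 54 were on the array, with 1 feature for 43 genes and 2 for the other 11, so that 65 of 7680 spotted features were followed. RNA of cells carrying yra1-1, a temperature-sensitive allele of the mRNA export factor gene YRA1, was set against RNA of Yra1 wild-type cells, both at 37 °C, on 6 dual-colour arrays. By the labels, channel 1 held the mutant RNA on arrays 1, 4 and 6, and channel 2 held it on the other 3 (2, 3 and 5). Numbers in the titles, read here as dates, place arrays 5 and 6 on day 1 and array 4 on day 2. They place array 2 on day 3 and arrays 1 and 3 on day 4 (days coded here). The titles give slide 5 for both arrays of day 4, and slides 1 and 3 for those of day 1. The title of array 1, alone among the 6, has the letters mex before yra1-1, which no label explains. Whether the arrays used RNA of separate cultures is not stated, so p-values here cover only the spread from array to array, which may be technical. The labels used here give no strain background, growth medium or carbon source.

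The TCA cycle oxidises acetyl groups in the mitochondrial matrix and hands electrons to the respiratory chain as NADH and through succinate dehydrogenase. Budding yeast has no proton-pumping complex I and uses single-subunit NADH dehydrogenases instead. Complexes III and IV pass the electrons to oxygen by way of cytochrome c and pump protons, and ATP synthase uses the proton gradient. Glucose represses many of these genes, and the Hap2/3/4/5 complex activates many of them during respiratory growth. Several steps have isozymes for other compartments or for low oxygen.

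Each value below is a log2 ratio of both channels, centred on the median of its array. The numerator channel is not stated, so results are read in 2 ways. In the first, signs are turned by the labelled channel: arrays 2, 3 and 5 are multiplied by minus 1. A negative turned value then means less RNA in yra1-1 than in wild type if the ratios are channel 1 over channel 2, and the opposite if they are the inverse. In the second, the columns are taken as deposited, which compares the strains if every column already has them in the same order. Turned values would then compare the channel assignments, not the strains. Which case holds is not stated. Array 1 ran opposite to the other 5 for 3 genes with large ratios, as deposited. YRA1 itself lay at −1.39 there and between 1.00 and 3.49 on the others, TRP1 at −3.48 against 2.76 to 4.16, and URA3 at 3.19 against −5.92 to −2.21. None of the 3 followed the labelled channel. On the 5 arrays other than array 1, each kept its side under both channel assignments, as it would with the strains in the same order. Their levels were not used to set directions. Sides are therefore named positive and negative, with no direction between strains.

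No member passed in either reading. In the contrast turned by the labels, 0 of 65 member features had a limma adjusted p below 0.05, against 0.013% of all features (1 of 7680). Unadjusted p-values were below 0.05 for 12 member features (18.5%), against 13.0% of all features. On the negative side these were 9 (13.8%, against 5.48% of all features) and on the positive side 3 (4.62%, against 7.51%). Both features of ACO1 and both of NDE1 were among the 9, which thus stand for fewer genes than features. With the columns as deposited, 0 member features passed, against 1.65% of all features. There 6 had an unadjusted p below 0.05 (9.23%, against 13.5%), 3 on the negative side (4.62%, against 7.33%) and 3 on the positive side (4.62%, against 6.13%). With array 1 turned over, the turned contrast left 2 member features with an unadjusted limma p below 0.05 in place of 12, and the share over all features came to 3.80% in place of 13.0%.

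As a group, member features lay slightly to the negative side in the turned contrast. There were 40 negative and 25 positive shifts with a median of −0.11, and 46.5% of all features were negative with a median of 0.04. Leaving out 1 array gave members' medians between −0.22 (without array 4) and −0.058 (without array 3), with −0.20 without array 2 and −0.068 without array 1, and averaging the arrays of a day gave −0.039. On the arrays themselves, as deposited, the median of the members was −0.39, 0.01, 0.39, 0.26, 0.52 and −0.28 on arrays 1 to 6. Array 4 lay on the positive side with arrays 3 and 5, although the labels place its mutant RNA in the same channel as on arrays 1 and 6. Within day 1 the turned median was −0.23 and within day 4 it was −0.26, against 0.05 and 0.06 for all features. As deposited, the median shift was 0.10, against 0.02 for all features.

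**Figure D1:**
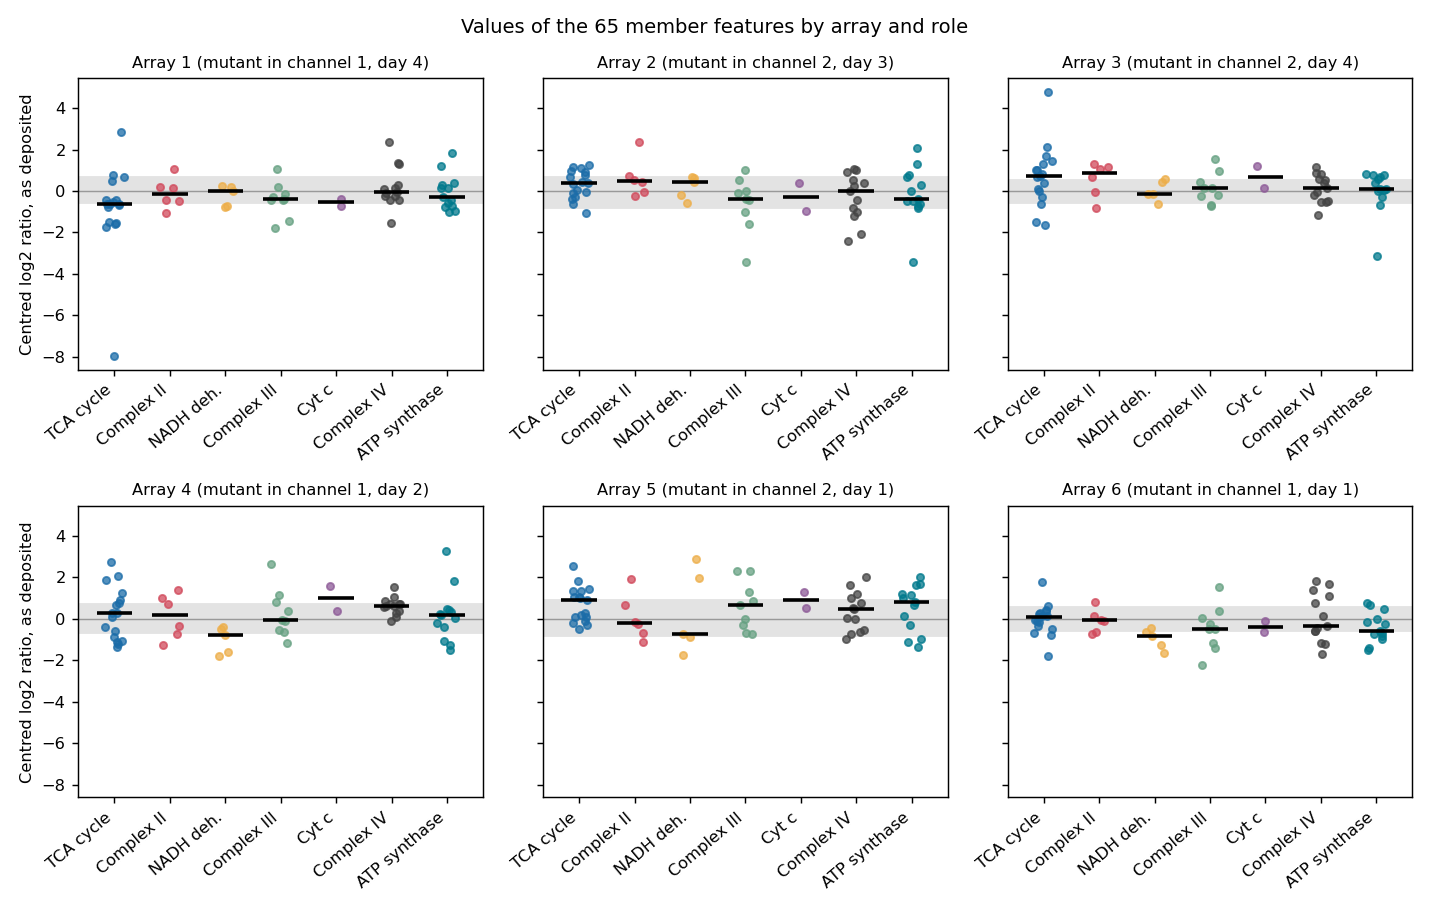
Centred log2 ratios as deposited (vertical axis) of the 65 member features by role group (horizontal axis), 1 panel per array, with each point a feature, black bars the group medians and the grey band the interquartile range of all features. TCA cycle medians lie at −0.64 on array 1 and at 0.91 on array 5, and IDH2 stands at −7.98 on array 1 and 4.79 on array 3.

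The TCA cycle enzymes held the lowest single turned shift, that of IDH2 at −2.49 ± 0.90 (limma adjusted p = 0.293). Of 17 features of 15 genes, 12 had a negative and 5 a positive shift (70.6% negative, against 46.5% of all features), with a median of −0.18. None passed in limma, and 6 had an unadjusted p below 0.05 (35.3%, against 13.0% of all features). Both features of ACO1 were among the 6. The median moved with single arrays: it was −0.037 without array 1, −0.32 without array 2, −0.33 without array 4 and −0.0045 with array 1 turned over. The medians as deposited were −0.64, 0.40, 0.74, 0.26, 0.91 and 0.06 on arrays 1 to 6, so turning by the labels gave 4 negative and 2 positive arrays. Within day 1 the turned median was −0.08 and within day 4 it was −0.67. As deposited, 12 shifts were positive and 5 negative, with a median of 0.25. There 0 features had an unadjusted limma p below 0.05 (0%, against 13.5% of all features).

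ACO1, the aconitase that converts citrate to isocitrate, followed the labelled channel on every array at both its features. Feature 4136 lay at −1.55, −1.21 and −0.69 on arrays 1, 4 and 6 and at 0.40, 1.01 and 1.35 on arrays 2, 3 and 5. Feature 5891 lay at −1.72, −1.11 and −0.78 on the first 3 and at 0.43, 1.29 and 1.32 on the second 3. Both features were thus negative on all 6 arrays once turned, as were 4.31% of all features. The turned shift was −1.03 ± 0.31 for the first feature (SE, limma adjusted p = 0.264) and −1.11 ± 0.32 for the second (adjusted p = 0.251). Within day 1 the turned values were −1.02 and −1.05, and within day 4 they were −1.28 and −1.50. With array 1 turned over the shifts came to −0.52 and −0.54. As deposited the features stood at −0.11 ± 0.31 and −0.09 ± 0.32 (limma adjusted p = 0.939 and 0.954).

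MDH3, the peroxisomal malate dehydrogenase, had a turned shift of similar size. It lay at −0.65, −1.06 and −1.80 on arrays 1, 4 and 6 and at −0.27, 0.69 and 2.53 on arrays 2, 3 and 5, so 1 array, array 2, was on the other side once turned. The turned shift was −1.08 ± 0.39 (limma adjusted p = 0.297), −2.17 within day 1 and −0.67 within day 4. It came to −0.69 without array 5 and to −0.56 after the medians of neighbouring features were subtracted. As deposited MDH3 stood at −0.09 ± 0.39 (limma adjusted p = 0.965). The mitochondrial enzyme MDH1 and the cytosolic enzyme MDH2 had small turned shifts. MDH1 was at −0.11 ± 0.32 and −0.18 ± 0.35 at its 2 features (limma adjusted p = 0.946 and 0.914). MDH2 was at 0.23 ± 0.38 (adjusted p = 0.884), with its highest value, 1.84, on array 4.

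The citrate synthase isozymes differed in their values on each array. CIT3, a mitochondrial citrate and methylcitrate synthase, lay at 2.82, 2.74 and 0.37 on arrays 1, 4 and 6 and at 1.18, −1.63 and 0.10 on arrays 2, 3 and 5. Its turned shift was 1.05 ± 0.45 (limma adjusted p = 0.356), and as deposited it stood at 0.93 ± 0.45 (adjusted p = 0.409). The turned shift came to 0.67 without array 3, 0.25 after neighbouring medians were subtracted and 0.11 with array 1 turned over. As deposited it came to 0.61 without array 2, 0.41 with array weights and −0.012 with array 1 turned over. CIT2, the peroxisomal enzyme and a target of the retrograde pathway, lay at −1.51, −1.06, 1.71, 2.06, 1.06 and 1.78 on arrays 1 to 6. Both signs occurred under either reading, and the turned shift was 0.10 ± 0.51 (limma adjusted p = 0.968). CIT1, the main mitochondrial citrate synthase, lay at −0.45, −0.61, 0.74, 0.65, 1.44 and −0.13, with a turned shift of −0.25 ± 0.36 (adjusted p = 0.865).

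The other TCA enzymes spanned a wide range. IDH2, a subunit of the NAD-dependent isocitrate dehydrogenase, holds the most extreme member values and is given its fitted shift for that reason, a choice made with those values in view. It lay at −7.98 on array 1 and 4.79 on array 3, both of day 4, and at 1.26, −0.88, 0.09 and 0.06 on arrays 2, 4, 5 and 6. The turned mean was −6.38 within day 4 and −0.02 within day 1. Its partner subunit IDH1 ranged only from −0.55 to 1.10. The 3 components of the 2-oxoglutarate dehydrogenase complex did not run alike on arrays 3 and 4. KGD2, the succinyltransferase, was at 1.01 on array 3 and −0.59 on array 4. KGD1, the oxidative decarboxylase, was at −1.48 and −0.41 there. LPD1, the lipoamide dehydrogenase that is shared with pyruvate dehydrogenase, was at 0.40 and 1.24. Succinyl-CoA ligase is a pair of LSC1 and LSC2 proteins. LSC1 stayed between −0.29 and 0.47, whereas LSC2 lay at −1.61, 0.96, 2.11, −1.38, −0.10 and 0.30 on arrays 1 to 6. On arrays 2, 4 and 6 the LSC2 value was a ratio of small whole numbers. FUM1, fumarase, stayed between −0.64 and 0.76.

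**Figure D2:**
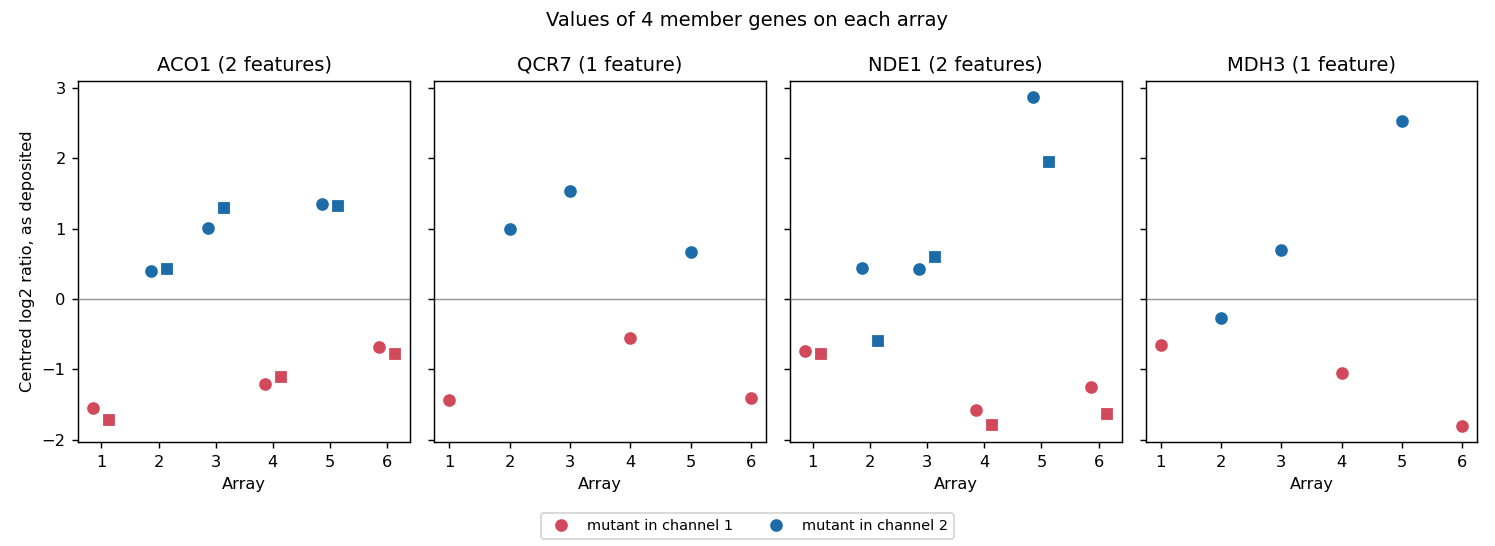
Centred log2 ratios as deposited (vertical axis) on arrays 1 to 6 (horizontal axis) for ACO1, QCR7, NDE1 and MDH3, with circles and squares for the first and second feature of a gene and colour for the channel of the mutant RNA per the labels. Both ACO1 features and QCR7 lie below 0 on arrays 1, 4 and 6 and above 0 on arrays 2, 3 and 5, whereas 1 NDE1 feature and MDH3 lie below 0 on array 2.

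Succinate dehydrogenase, which is complex II and also the TCA enzyme that oxidises succinate, had 5 negative and 1 positive turned shifts at 6 features, between −0.54 and 0.19. None had an unadjusted p below 0.05. SDH2, the iron-sulfur subunit, lay at −1.07, −0.04, 1.31, −1.28, −1.11 and −0.76 on arrays 1 to 6, with a turned shift of −0.54 ± 0.36 (limma adjusted p = 0.594). It came to −0.23 without array 3, −0.83 without array 5 and −0.19 with array 1 turned over. SDH3, a membrane anchor subunit, had 1 feature above 0 on all 6 arrays as deposited, at 0.21, 2.37, 1.04, 0.99, 0.67 and 0.15. That feature stood at 0.91 ± 0.34 as deposited (limma adjusted p = 0.237) and at −0.46 ± 0.34 once turned (adjusted p = 0.653), or −0.20 without array 2. The other SDH3 feature was below 0 on arrays 1, 5 and 6. SDH1, the flavoprotein, had turned shifts of opposite sign at its 2 features (−0.02 and 0.19). SDH4, the other anchor, ranged from −0.43 to 1.91, with the highest value on array 5.

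Among the NADH dehydrogenases the external enzyme NDE1, which oxidises cytosolic NADH at the inner membrane, had the lowest turned shifts. Its feature 3545 lay at −0.73, −1.58 and −1.26 on arrays 1, 4 and 6 and at 0.44, 0.43 and 2.87 on arrays 2, 3 and 5. Feature 4697 lay at −0.79, −1.79 and −1.64 on the first 3 and at −0.60, 0.60 and 1.94 on the second 3. Both features followed the labelled channel except at array 2, where the second was negative. The turned shifts were −1.22 ± 0.39 (limma adjusted p = 0.266) and −1.03 ± 0.38 (adjusted p = 0.299), and neither passed. Within day 1 they came to −2.06 and −1.79, and within day 4 to −0.58 and −0.69. Leaving out array 5, with the highest NDE1 values, gave −0.81 for the first feature. As deposited the NDE1 features stood at 0.03 ± 0.39 and −0.38 ± 0.38 (limma adjusted p = 0.990 and 0.781). NDE2, the second external enzyme, lay at 0.20, 0.66, −0.12, −0.79, −0.87 and −0.65, with a turned shift of −0.15 ± 0.33 (adjusted p = 0.927). The internal enzyme NDI1 had 1 feature below 0 on every array, between −1.73 and −0.02, which stood at −0.63 ± 0.33 as deposited (limma adjusted p = 0.465), or −0.41 without array 5. Its other feature was positive on arrays 1 and 2.

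The cytochrome bc1 complex, complex III, had 5 negative and 4 positive turned shifts over 9 genes, with a median of −0.11. That median was 0.030 without array 5, 0.066 without array 6, 0.036 with days averaged and 0.0057 with array 1 turned over, and −0.28, −0.29 and −0.23 without array 1, 2 or 4. QCR7, a small subunit of the complex, followed the labelled channel on all 6 arrays. It lay at −1.44, −0.55 and −1.41 on arrays 1, 4 and 6 and at 0.99, 1.54 and 0.67 on arrays 2, 3 and 5. The turned shift was −1.10 ± 0.32 (limma adjusted p = 0.251), −1.04 within day 1 and −1.49 within day 4. Subtracting the medians of neighbouring features left −0.63, and turning array 1 over left −0.62. As deposited QCR7 stood at −0.03 ± 0.32 (limma adjusted p = 0.984). CYT1, cytochrome c1, lay on the positive side at 1.16 ± 0.49 (adjusted p = 0.351), with array 2 at −3.44 and array 4 at 2.64. On the other 4 arrays it stayed between −0.76 and 0.18. The shift came to 0.67 without array 2, 0.71 without array 4 and 0.50 after neighbouring medians were subtracted.

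The core subunits COR1 and QCR2 of complex III lay below 0 on every array as deposited. COR1 was at −0.42, −1.60, −0.73, −0.64, −0.29 and −2.24 on arrays 1 to 6, a shift of −0.99 ± 0.36 (limma adjusted p = 0.214). QCR2 stayed between −0.69 and −0.13. Among the remaining subunits, RIP1, the Rieske iron-sulfur protein, and QCR6 had their highest values on array 5, at 2.29 and 2.32. QCR8 was lowest on array 1 at −1.78, QCR9 was highest on array 6 at 1.53, and QCR10 was above 0 on all arrays, between 0.01 and 1.28.

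Both cytochrome c genes, the mobile carriers between complexes III and IV, had small shifts. CYC1, the aerobic form, lay at −0.74, −0.98, 1.20, 1.60, 0.52 and −0.63 on arrays 1 to 6. CYC7, the form favoured at low oxygen, lay at −0.36, 0.40, 0.15, 0.39, 1.31 and −0.13. The turned shifts were −0.09 ± 0.42 for CYC1 (limma adjusted p = 0.967) and −0.33 ± 0.32 for CYC7 (adjusted p = 0.758). As deposited CYC7 stood at 0.29 ± 0.32 (adjusted p = 0.812).

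Cytochrome c oxidase, complex IV, had 9 positive and 4 negative turned shifts at 13 features, against 53.5% positive over all features. They were small, between −0.28 and 0.46 with a median of 0.11, and none had an unadjusted p below 0.05. The 2 smallest p-values belonged to a feature of COX8, a small subunit, at 0.46 ± 0.36 (limma adjusted p = 0.671) and to COX9 at 0.37 ± 0.35 (adjusted p = 0.745). The COX8 shift came to 0.24 without array 1 and 0.021 with it turned over, and the COX9 shift to 0.20 without array 2. On array 4, 12 of 13 features lay above 0 with a median of 0.62. On arrays 1, 2 and 3 the median was between −0.05 and 0.15, on array 5 it was 0.47 and on array 6 it was −0.35, all as deposited. The turned median of 0.11 depended on array 4: without it the median was −0.048, and without any other array it stayed between 0.070 and 0.25. With array weights it was 0.00074. The isoforms of subunit V did not pass either. COX5A, the aerobic form, stayed between −0.75 and 0.71 (turned shift 0.04 ± 0.33, limma adjusted p = 0.982). COX5B, the form favoured at low oxygen, lay at 0.13, −2.08, 0.57, 0.69, 1.65 and −1.72 on arrays 1 to 6 (turned shift −0.17 ± 0.49, adjusted p = 0.944).

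COX6, another nuclear-encoded subunit of the oxidase, lay above 0 on all 6 arrays as deposited, at 0.31, 1.08, 1.14, 0.56, 2.02 and 1.69. Its shift of 1.13 ± 0.33 did not pass (limma adjusted p = 0.127). It passed with array weights (1.04, limma adjusted p = 0.0388), a setting in which 7.55% of all features passed, and over all alternatives the adjusted p ran up to 0.834. COX13 had 1 feature at −1.55, −2.40, −0.52, −0.10, 0.52 and −1.20, whereas its other feature stayed within 0.45 of 0 on all arrays except array 4. COX7 ranged from −1.19 to 0.60 and was below 0 on 4 arrays.

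ATP synthase had 8 negative and 5 positive turned shifts at 13 features, with a median of −0.25, which was −0.14 without array 1 or array 3 and −0.080 with days averaged. The medians as deposited were −0.30, −0.37, 0.08, 0.17, 0.82 and −0.59 on arrays 1 to 6. The catalytic head is built from ATP1 (alpha), ATP2 (beta) and the stalk proteins ATP3, ATP16 and ATP15. ATP2 lay at −0.30, −0.48, 0.03, −1.10, 2.02 and −1.51, with its largest values on arrays 5 and 6 of day 1, and ATP1 was below 0 on all arrays except array 3. ATP3 reached 2.07 on array 2 and −1.53 on array 4, and ATP15 reached 3.27 on array 4. ATP16 stood at 1.17 on array 5 and ran from −0.47 to 0.66 on the others.

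ATP20 and ATP7, of the membrane sector and the stator, had the smallest p-values. ATP20, subunit g, which takes part in dimer formation, lay at −0.95, 1.82 and −0.03 on arrays 1, 4 and 6 and at −3.43, −3.14 and −1.35 on arrays 2, 3 and 5. Once turned, arrays 2 to 5 were positive and arrays 1 and 6 negative. The turned shift was 1.46 ± 0.43 (limma adjusted p = 0.254), and 0.66 after neighbouring medians were subtracted. As deposited it stood at −1.18 ± 0.43 (adjusted p = 0.213), which passed with array weights (−1.36, adjusted p = 0.0341) among alternatives whose adjusted p ran up to 0.741, and which came to −0.53 after neighbouring medians were subtracted. ATP7, a stator subunit, lay at −0.78, 1.32, 0.75, 0.46, 1.66 and −0.24, with array 4 the exception to the labelled channel (turned shift −0.72 ± 0.32, limma adjusted p = 0.382, or −0.46 with array 1 turned over). ATP14 was below 0 on every array, between −1.11 and −0.31. The remaining subunits ATP4, ATP5, ATP17 and ATP18 lay between −0.97 and 1.82.

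**Figure D3:**
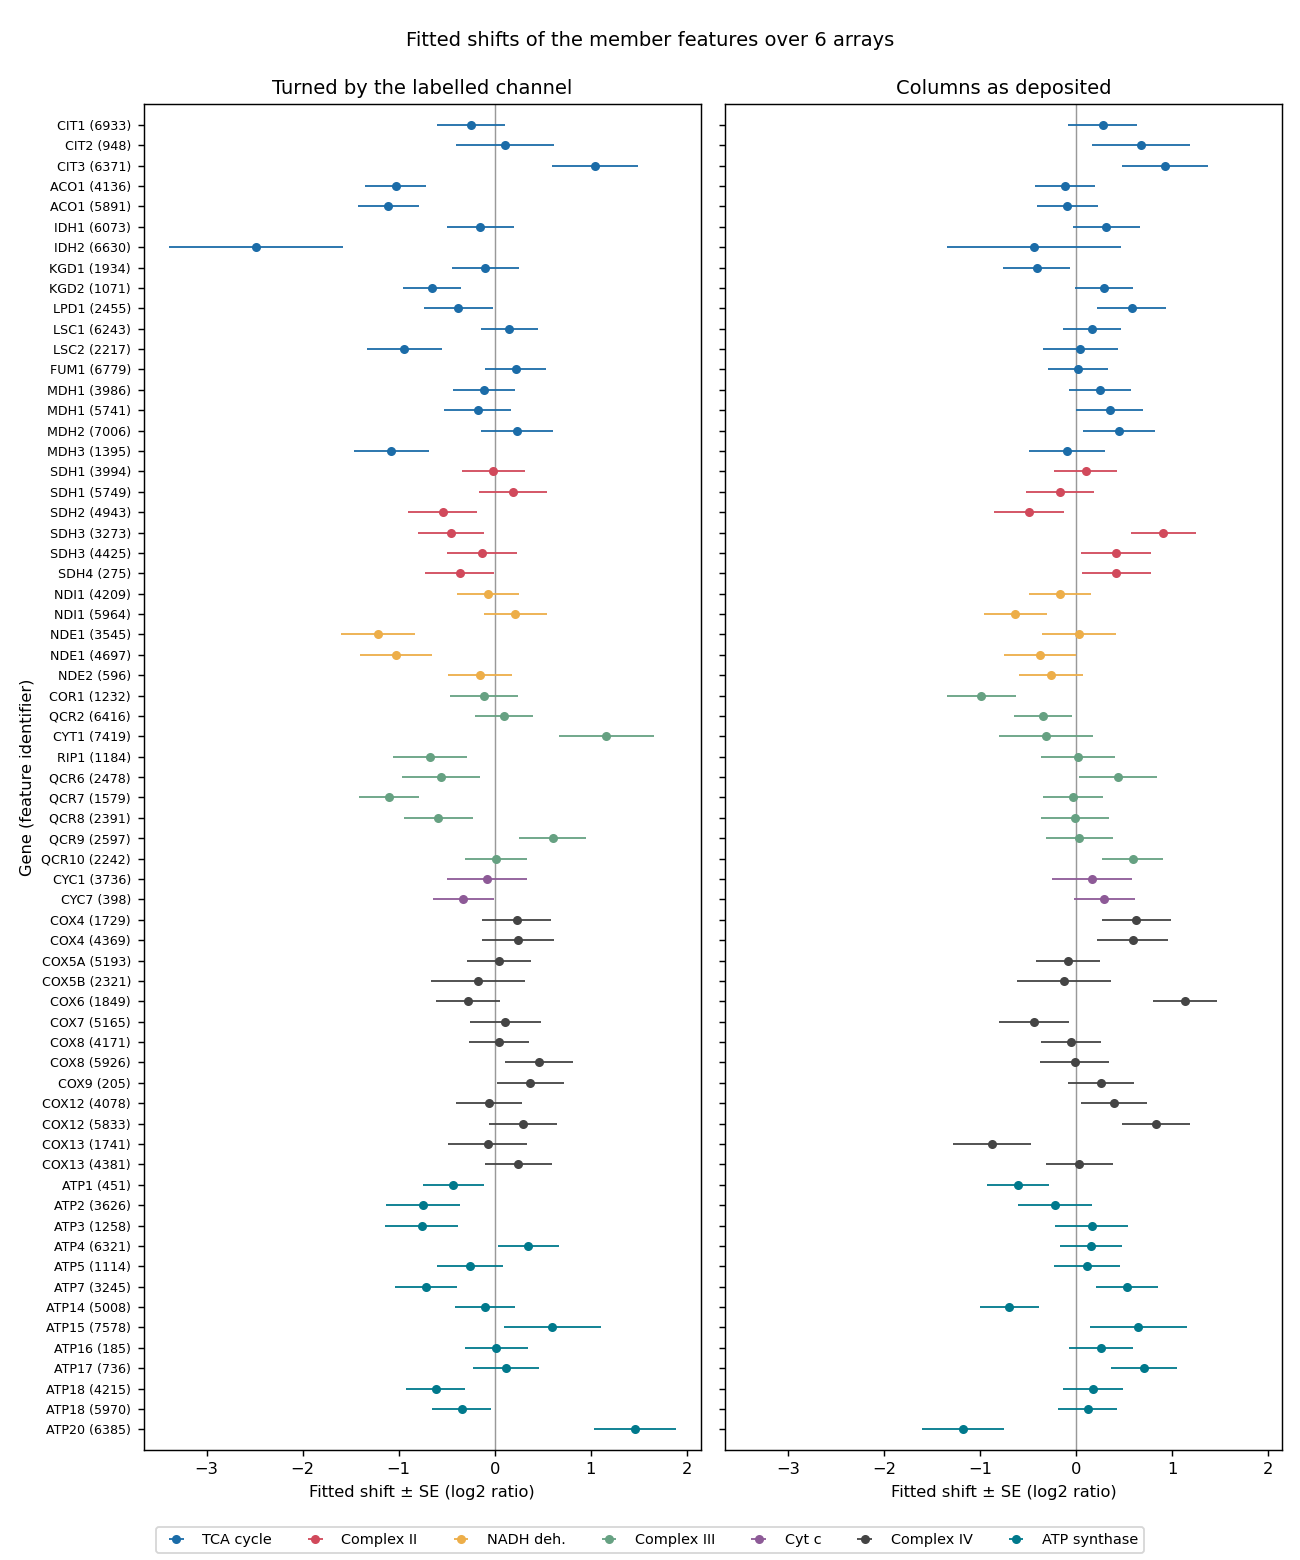
Fitted shift in log2 ratio (horizontal axis, points with bars of 1 SE) for each of the 65 member features (vertical axis, gene with feature identifier), turned by the labelled channel on the left and as deposited on the right, coloured by role. On the left ACO1, QCR7, NDE1 and MDH3 lie between −1.22 and −1.03, and complex IV lies between −0.28 and 0.46.

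Across roles, 4 member features were negative on all 6 arrays once turned (6.15%, against 4.31% of all features): both features of ACO1, 1 of NDE1 and QCR7. None was positive on all 6 (0%, against 2.98%). As deposited, 4 were negative throughout (6.15%, against 4.03%), in NDI1, COR1, QCR2 and ATP14, and 4 were positive throughout (6.15%, against 4.06%), in SDH3, QCR10, COX6 and COX12. The shares as deposited were near those of all features. COR1 and QCR10 in complex III were on opposite sides, but neither shift passed in limma, and QCR10 lay at 0.01 on array 2. The roles were not tested against one another.

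The 11 genes with 2 features show how far a value repeats within an array. Both values lay on the same side of 0 in 51 of 66 pairs (77.3%), against 61.3% over all genes with 2 features. ACO1 and MDH1 agreed in side on all 6 arrays, as did 10.8% of 1094 such genes. The 2 ACO1 features, 1755 identifiers apart like those of MDH1, SDH1, NDI1, COX8, COX12 and ATP18, differed by 0.03 to 0.28 on the 6 arrays. None of the 1094 genes with both features measured on every array had a smaller largest difference, a rank looked up after the ACO1 values were seen. The median difference over all 2-feature genes was 0.51 to 0.85 by array. Their Pearson correlation between the 2 features was 0.15, 0.27, 0.17, 0.44, 0.60 and 0.23 on arrays 1 to 6. For NDE1 the features differed by 0.05 to 1.03 and for ATP18 by 0.11 to 0.88.

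Some complex IV genes had features further apart. COX12 features differed by 2.79 on array 1, where 1 stood at −0.42 and the other at 2.36. COX4 features differed by 0.19 to 1.90 and lay on the same side on only 3 arrays. COX4 feature 4369 had on 5 arrays a value identical to that of another feature of the array, and COX13 feature 4381 had one on 3 arrays. In all, 7 of 65 member features had such a repeated value, and 31 had a ratio of small whole numbers on at least 1 array. Array 1 held 12 of these ratios (18.5% of member values, against 21.5% of all values) and array 2 held 19 (29.2%, against 23.2%). The turned shifts of both features had the same sign for 7 of 11 genes, against 65.3% of all 2-feature genes.

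**Figure D4:**
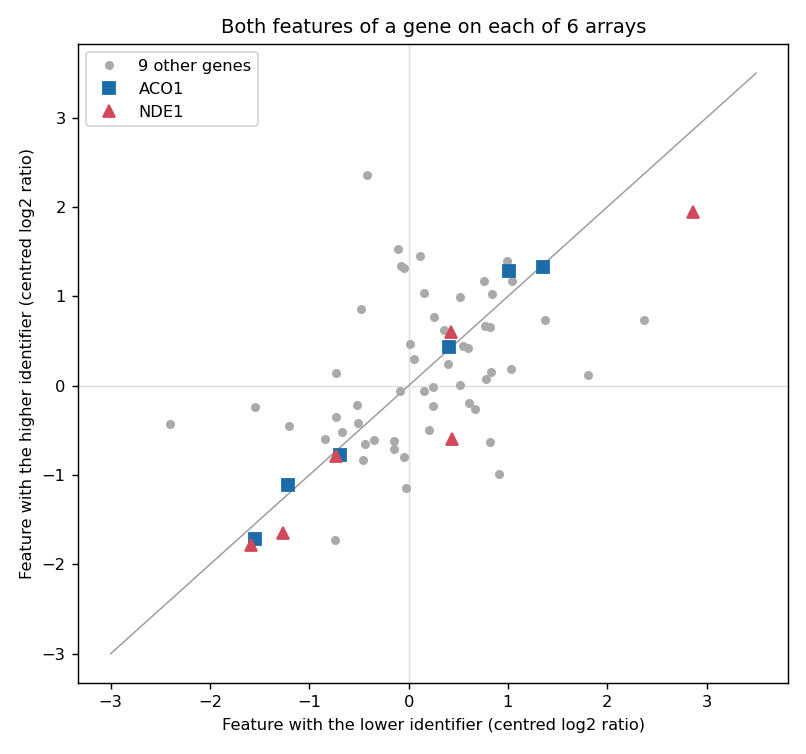
Centred log2 ratio of the feature with the lower identifier (horizontal axis) against that of the feature with the higher identifier (vertical axis) for the 11 members with 2 features, 1 point per gene and array, with the line of equal values. ACO1 lies within 0.28 of the line on all 6 arrays, whereas COX12 is 2.79 off it on array 1.

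The wider pathway gave no passing feature either. In 6 further lists, 122 of 127 genes were found at 153 features, and 5 genes are not analysed here. None of the 153 passed in limma in either reading, with 15 (9.80%) below an unadjusted p of 0.05 when turned (13.0% of all features) and 16 (10.5%) as deposited (13.5% of all features). Over all features 53.5% of the turned shifts were positive, for comparison with the counts below. Regulators of respiratory genes had a turned median of 0.11 (13 of 21 positive). The member with the smallest p was HAP5, a subunit of the CCAAT-binding activator, at 1.20 ± 0.38 with 6 of 6 arrays positive (limma adjusted p = 0.266). Its partner HAP3 had the smallest p as deposited, at −0.75 ± 0.36 (adjusted p = 0.407).

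Assembly factors of the respiratory complexes had a turned median of 0.12 (39 of 57 positive). COX11, which delivers copper to the oxidase, stood at 2.03 ± 0.51 with 5 of 6 arrays positive (limma adjusted p = 0.224), and COX16 at −1.36 ± 0.37 as deposited (adjusted p = 0.0990). Mitochondrial carriers had a turned median near 0 (11 of 23 positive), led by the oxodicarboxylate carrier ODC1 at 0.88 ± 0.36 over 5 arrays (adjusted p = 0.345). As deposited the pyruvate carrier subunit MPC3 stood at −1.17 ± 0.39 (adjusted p = 0.177).

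Pyruvate dehydrogenase, anaplerotic and glyoxylate enzymes had a turned median of 0.12 (12 of 20 positive). IDP1, the mitochondrial NADP-dependent isocitrate dehydrogenase, stood at −1.03 ± 0.37 (limma adjusted p = 0.293). PCK1, the gluconeogenic PEP carboxykinase, was positive on all 6 arrays as deposited, at 1.41 ± 0.37 (adjusted p = 0.0859). Ubiquinone and heme synthesis had a turned median of −0.05 (9 of 20 positive), with HEM1, the first enzyme of heme synthesis, at −1.45 ± 0.46 (adjusted p = 0.266) and COQ8 at 0.95 ± 0.38 as deposited (adjusted p = 0.276). In the last list, of other respiratory enzymes and ATP synthase factors, 6 of 12 features were positive once turned. RCF1, a respiratory supercomplex factor, stood at 1.08 ± 0.43 (limma adjusted p = 0.336) and STF2 at −1.66 ± 0.48 as deposited (adjusted p = 0.120).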

How the data were processed

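The authors deposited log10 ratios, 1 per feature and array. Base 10 was read from the values: it gave 38 to 338 exact ratios of small integers per array, against at most 2 for log2. The sources used here do not give the image analysis, background treatment or normalization. Intensities were not used, so signal over background is unknown. Of 7684 rows, 1 without a numeric identifier was dropped and 3 repeated identifiers were averaged. Values were converted to log2 and centred on each array's median (−3.91 to 4.11 before). Of the features, 6695 had 1 gene symbol in the platform annotation and 985 had none.

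All features with values on at least 4 arrays, 2 of each channel assignment, were fitted with limma 3.58.1 in R 4.3.3 (lmFit, eBayes), with terms for the labelled channel and for the columns as deposited. Tests are two-sided, with Benjamini-Hochberg adjustment over 7680 features and a threshold of 0.05. The fit was tested only on simulated data with independent noise and planted shifts larger than any member shift. Shifts of the size seen in members were not covered. The 6 arrays limit the precision.

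Fitted shifts are printed for the features with the smallest p in each role group (2 turned, or 1 for cytochrome c and the NADH dehydrogenases, and 1 as deposited) and for isozymes of citrate synthase, malate dehydrogenase, external NADH dehydrogenase, cytochrome c and oxidase subunit V. In other lists the feature with the smallest p is named. IDH2 was added outside this rule. Alternatives left out each array, averaged or blocked days, dropped the second term, the centring, repeated values or small whole-number ratios, equalised spread, subtracted neighbouring features, turned array 1 over, weighted arrays, averaged features of a gene, or required 6 values. Members, lists and alternatives were chosen with earlier results of these data known. A small whole-number ratio has a product of terms below 1000000. Neighbouring features are those with nearby identifiers, and no layout of the slide was read.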

Additional observations from a re-analysis of the deposited data

Results flagged for a closer look

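Among 146 sets of 6 array values, for each member feature and role group median in both readings, 4 had an array far from the others by Dixon's criterion. Chance flags about 1 in 20. KGD2 stood at 0.12 on array 6 once turned, the only positive array of 6. COX13 feature 4381 stood at 1.52 on array 4 as deposited, against −0.45 to 0.01 on the others. ATP16 stood at −1.17 on array 5 once turned. ATP18 feature 4215 stood at 0.24 on array 4 once turned, where the other 5 arrays were negative.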

How the results depend on the processing

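Every array ratio already pairs mutant with wild-type RNA. By the labels, arrays 5 and 6 of day 1 have the channels swapped, as do arrays 1 and 3 of day 4. The within-day values above average these pairs. The count of members passing stayed at 0 in both readings except without centring (50 turned, where 63.6% of all features passed) and with array weights (2 as deposited, COX6 and ATP20, where 7.55% of all features passed). In uncentred values all features together had a median of −2.07 turned and −0.82 as deposited. The medians of the members then came to −2.22 turned and −0.73 as deposited. By role, turned and then as deposited, they were −2.28 and −0.58 for the TCA cycle, −2.36 and −0.58 for complex II, −2.26 and −1.10 for NADH dehydrogenases, and −2.22 and −0.85 for complex III. They were −2.32 and −0.61 for cytochrome c, −1.999 and −0.80 for complex IV, and −2.36 and −0.68 for ATP synthase. Turned shifts that changed sign there were those of CYT1 (−0.95), COX8 (−1.65), COX9 (−1.74), ATP20 (−0.65), CIT2 (−2.01), CIT3 (−1.06), MDH2 (−1.88) and COX5A (−2.07), and as deposited CYC7 (−0.54). The negative side of ACO1, QCR7, MDH3 and both NDE1 features held under all 18 alternatives, which reuse the same arrays. Over these alternatives their limma adjusted p ran up to 0.964 or 0.965. A negative side under all 18 was also found for SDH2, SDH3 feature 3273, CYC7, ATP7 and CIT1, so it does not set those genes apart. The CIT1 shift had a limma adjusted p = 0.865 as reported. Other signs changed among small shifts. With neighbouring medians subtracted MDH1 came to 0.25 and 0.13, MDH2 to −0.090, NDE2 to 0.091 and CYC1 to 0.11. With array 1 turned over MDH1 came to 0.036 and 0.043, CYC1 to 0.16 and CIT3 as deposited to −0.012. With array weights CIT2 came to −0.19, MDH1 to 0.0018 and COX5A to −0.14. With arrays of a day averaged CYC1 came to 0.26 and COX5B to 0.21, and with day as a random block CYC1 to 0.027. Without small whole-number ratios NDE2 came to 0.042 and CYC1 to 0.12, and with equal spread of arrays COX5A to −0.020. Leaving out 1 array in turn gave turned ranges of −0.30 to 0.68 for CIT2, −0.22 to 0.060 and −0.32 to 0.055 for MDH1, −0.058 to 0.53 for MDH2, −0.34 to 0.042 for NDE2, −0.47 to 0.15 for CYC1, −0.15 to 0.18 for COX5A and −0.71 to 0.23 for COX5B. COX9 had too few arrays for a value without small whole-number ratios. Member features with an unadjusted p below 0.05 numbered 2 with array 1 turned over, 17 with array weights and 58 without centring (12 as reported), and over all features these settings gave 3.80%, 20.8% and 75.6% (13.0% as reported). As deposited they numbered 12 with array weights, 9 with neighbouring medians subtracted, 3 without array 2 and 2 without centring (6 as reported), and over all features 19.6%, 13.5%, 12.2% and 6.54% (13.5% as reported). The causes were not tested.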
